A study of Mus musculus with 4 samples.

Results

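The genes described here are 41 interferon-stimulated genes of the mouse, measured in small intestinal crypts and in organoids grown from them. They were taken by name from the array's gene annotation, with Isg15 found under its older name G1p2, and they are 41 of 28632 genes on the array and 62 of 41174 probes. A crypt is a pocket of the gut lining with stem cells at its base, and an organoid is a hollow epithelial body that such a pocket forms in culture. Crypts of 2 mice were each split: RNA of a portion was isolated at once, and the rest was embedded in Matrigel with EGF, R-spondin and Noggin for 1 week before RNA isolation. For each mouse both RNAs shared an Agilent array, which was repeated with the dyes exchanged, giving 4 arrays. The arrays of a mouse carry the same RNAs and were averaged, so n = 2 mice throughout, and every organoid is descended from crypts of the mouse it is compared with. No genetic change or drug is named in the labels, and the strain, sex and age of the mice are not given in the sources used here. Unless a channel level is named, values are log2 ratios (organoid over crypt), and ± gives the SD between the 2 mice.

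Interferons are secreted proteins that signal through cell surface receptors, JAK kinases and STAT transcription factors. Type I and type III interferons lead to a complex with STAT2 and IRF9 that binds the interferon-stimulated response element (ISRE), and type II interferon acts through the gamma-activated sequence (GAS). The induced genes encode antiviral enzymes, sensors of viral nucleic acid, GTPases that act on intracellular pathogens, and the transcription factors that carry the response further. In the gut, epithelial cells keep a resting level of such genes, and microbes and immune cells in the tissue are known to raise it.

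Interferon-stimulated genes were lower in organoids than in crypts in most cases, and none was called higher in the test. Of the 41, 39 were tested and 29 fell (limma's test over all genes, Benjamini-Hochberg adjusted p under 0.05), which is 74.4% of those tested, against 5.49% of all 15538 genes tested. None rose, against 5.43% of all genes, and 10 did not pass. The median ratio of the 39 was -1.36 (-0.99 in mouse 1 and -1.56 in mouse 2), whereas that of all genes tested was 0.02. At least a 2-fold lower level in both mice was found for 19 of the 39, against 2.3% of all genes, and a ratio below 0 on all 4 arrays for 36 of the 39, against 21.7%. The 39 were all well above background in all 4 crypt channels and 28 of them in all 4 organoid channels. The other 11 entered the test through the crypt side alone, which by itself favours a lower ratio, so the counts cover the genes tested and not all 41. In a fit limited to probes well above background in all 8 channels, 23 of 28 fell (5.46% of all genes in that fit). With arrays centred on their medians in place of loess, 7 of the 39 fell (0.605% of all genes). Because the arrays read whole crypt fractions and whole organoids, fewer cells that express a gene and less RNA per cell cannot be told apart.

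**Figure D1:**
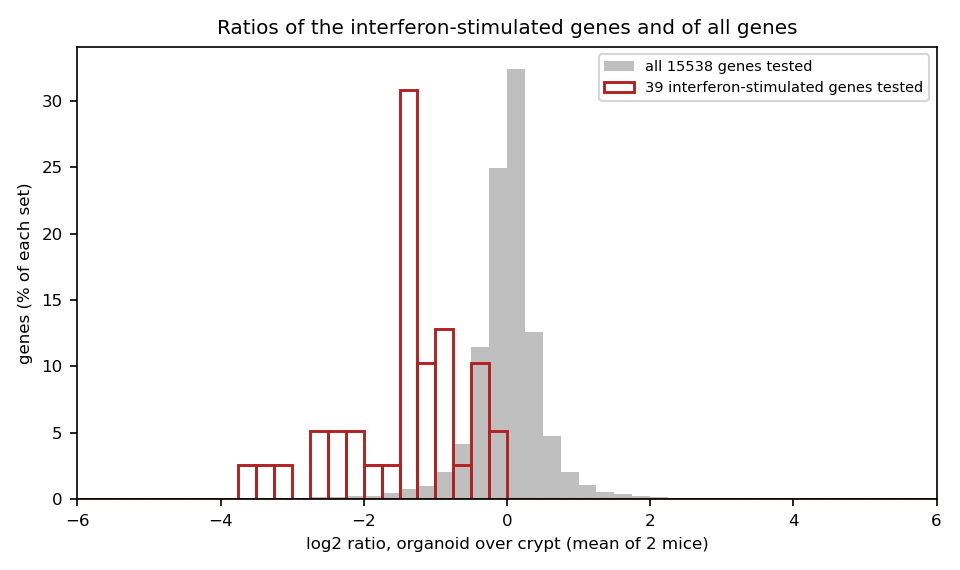
Histogram of the log2 ratio of organoid over crypt (mean of 2 mice, bins of 0.25) as the percentage of all 15538 genes tested (grey) and of the 39 interferon-stimulated genes tested (red outline). All genes centre near 0.02, and the interferon-stimulated genes have a median of -1.36 with no value above 0.

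Of the 5 transcription factors of the response 4 fell. Irf1, an early target of type II interferon, had the ratios -2.54 and -2.54 in mouse 1 and -2.65 and -2.82 in mouse 2 (each mouse first with the organoid in Cy5, then in Cy3, an order kept below). These are of its brighter probe, at chromosome 11, 53590715 to 53590774 in mm9. The mean was -2.64 ± 0.14 (adjusted p = 0.00167), 6.22-fold lower in organoids, with all 4 arrays of that probe close together. A second tested Irf1 probe, also well above background in every channel, was at -1.75 ± 0.28 (3.37-fold lower). Its arrays lay further apart, at -2.21 and -0.91 in mouse 1 and -2.14 and -1.76 in mouse 2. Irf7, the amplifier of type I interferon production, had -2.58 and -0.77 in mouse 1 and -2.58 and -1.93 in mouse 2, with a mean of -1.97 ± 0.41 (adjusted p = 0.00559). The 1 array of mouse 1 with the organoid in Cy3 gave the smallest fall of Irf7. Irf9, the DNA-binding part of the type I complex, had -1.43 (SD 0.47, adjusted p = 0.0149), and Irf8, better known from myeloid cells, had -0.94 (SD 0.09, adjusted p = 0.0157), and both passed. Stat2 had -0.68 and -0.39 in mouse 1 and -2.56 and -1.96 in mouse 2. Its mean of -1.40 ± 1.22 did not pass (adjusted p = 0.0951), and both arrays of mouse 2 lay far below both arrays of mouse 1. With the mouse as a replicate block over 4 arrays Stat2 passed (limma adjusted p = 0.0339). That fit used the same correlation of 0.173 for every gene and so counts the dye-swapped arrays of a mouse as nearly independent. Its p-value therefore overstates the replication of 2 mice.

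The ISG15 system tags proteins with the ubiquitin-like protein ISG15 and removes it again. Isg15 itself, the tag, had -2.81 and -1.46 in mouse 1 and -2.96 and -2.60 in mouse 2. Its mean was -2.46 ± 0.45 (adjusted p = 0.00394, 5.50-fold lower in organoids; probe at chromosome 4, 155573922 to 155573981 in mm9). Usp18, the protease that removes ISG15 and dampens receptor signalling, had -2.50 and -0.77 in mouse 1 and -2.47 and -2.29 in mouse 2 (mean -2.01 ± 0.53, adjusted p = 0.00747; chromosome 6, 121220513 to 121220572). For both genes 3 arrays lay close together and the mouse 1 array with the organoid in Cy3 lay nearer 0. Trim25, a ubiquitin ligase that activates the RNA sensor RIG-I, was at -0.41 ± 0.17 (adjusted p = 0.133), with ratios of -0.52, -0.54, -0.27 and -0.31. Its ratio was below 0 on all 4 arrays but the size did not pass the test, whereas it did with the replicate block (adjusted p = 0.0335). The limit given for Stat2 under that fit holds for Trim25 too.

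The promoters of the genes are shown for the ISRE, which occurred in genes that fell and in genes that did not pass. RefSeq's promoter table for GRCm38.p6, with 250 bases before and 50 after each gene's start, held 35 windows for 30 of the 41 genes. The ISRE core GAAANNGAAA (or TTTCNNTTTC, the same element on the other strand; overlapping matches counted) was found in 42.9% of those windows, in 15 of the 30 genes, and in 3.44% of all 32851 windows in the table. The GAS core TTCNNNGAA, which reads the same on both strands, was found in 25.7% of the genes' windows and in 8.3% of all windows. The list was drawn up for its response to interferon, so a high share of ISRE cores describes the list. Among the genes tested, the 15 with an ISRE core had a median ratio of -1.24 and 10 of them fell, and the 14 with a window but no core had -1.35 and 10 fell. The stretches below run 5′ to 3′ in the direction of each gene, end before its start, and have the ISRE cores in capitals. The first 6 are genes that fell. Gbp2 and Cxcl10 are shown beside them because they hold a core and did not pass the test (Gbp2 did with other ratios, given below). Bst2 and Rsad2, which fell, and Stat2 and Oas3, which did not pass, also hold a core before their start and are not shown.
Isg15: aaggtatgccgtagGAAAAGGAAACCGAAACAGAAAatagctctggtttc
Ifit1: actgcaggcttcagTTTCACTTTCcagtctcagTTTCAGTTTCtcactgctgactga
Ifit3: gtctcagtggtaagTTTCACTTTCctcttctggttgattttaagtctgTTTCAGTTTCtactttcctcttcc
Gbp3: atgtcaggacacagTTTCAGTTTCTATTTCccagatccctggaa
Oas1a: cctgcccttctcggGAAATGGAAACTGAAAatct
Igtp: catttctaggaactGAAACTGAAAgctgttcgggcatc
Gbp2: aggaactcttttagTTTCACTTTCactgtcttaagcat
Cxcl10: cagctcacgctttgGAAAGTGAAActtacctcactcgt

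These stretches lie at chr4:156200861-156200910 (minus strand) for Isg15, chr19:34640771-34640827 (plus) for Ifit1, chr19:34583359-34583430 (plus) for Ifit3 and chr3:142559985-142560028 (plus) for Gbp3. The others lie at chr5:120907526-120907559 (minus) for Oas1a, chr11:58199508-58199545 (plus) for Igtp, chr3:142620590-142620627 (plus) for Gbp2 and chr5:92349079-92349116 (minus) for Cxcl10, all in GRCm38.p6. Counted from the start, with the base before it as -1, the 3 overlapping cores of Isg15 begin between -78 and -66, and the 2 of Ifit1 begin at -104 and -85. Gbp3 and Gbp2, neighbouring members of a GTPase family, hold cores that begin at -45 and -39 in Gbp3 and at -59 in Gbp2. The core of Cxcl10 begins at -213.

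The sensors of foreign RNA and DNA were lower too. Zbp1, a sensor of Z-form nucleic acid that can trigger cell death, had -2.78 and -1.31 in mouse 1 and -2.63 and -3.03 in mouse 2 (mean -2.44 ± 0.56, adjusted p = 0.00511, 5.41-fold lower; chromosome 2, 173032111 to 173032170). The RNA sensor gene Ifih1 (MDA5) fell (-1.45 ± 0.20, adjusted p = 0.0066), and its relative Dhx58 (LGP2) fell too (-1.14 ± 0.31, adjusted p = 0.0161). Eif2ak2, the RNA-activated kinase PKR that halts translation, fell (-0.80 ± 0.16, adjusted p = 0.0272). Ddx58 (RIG-I) had -0.48 and -0.26 in mouse 1 and -1.61 and -0.75 in mouse 2, and its mean of -0.77 ± 0.57 did not pass (adjusted p = 0.0924). So 4 of the 5 sensors fell, and the fifth had both arrays of mouse 2 below both arrays of mouse 1.

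Of the 2-5A synthetase family, whose active members make the messenger that switches on RNase L, 4 of 5 fell. Oasl2 had -3.40 and -2.12 in mouse 1 and -3.27 and -3.54 in mouse 2 (mean -3.08 ± 0.46, adjusted p = 0.0026, 8.46-fold lower; chromosome 5, 115362168 to 115362227). Oasl1, which is known to restrain Irf7 translation, was at -1.28 ± 0.70 (adjusted p = 0.039), and Oas1a at -1.24 ± 0.22 (adjusted p = 0.0102). From the scanner's own ratios and from the authors' matrix Oasl1 did not pass. Oas2 was well above background in all 4 crypt channels and in no organoid channel, so its fall is given as a bound. As the mean of the 2 mice it was at least 2.68-fold lower in organoids (adjusted p = 0.0435). Its ratio was -0.85 in mouse 1 and -2.11 in mouse 2. Oas3 was dim in both tissues, with ratios of -0.64, -0.10, -0.45 and -0.48, and its mean of -0.42 ± 0.07 did not pass (adjusted p = 0.112), and from the scanner's own ratios it did (-0.97, adjusted p = 0.0429).

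The IFIT proteins bind foreign RNA caps and ends, and 2 of their 3 genes, which neighbour each other on chromosome 19, fell. Ifit1 had -2.41 and -0.73 in mouse 1 and -2.65 and -2.44 in mouse 2 (mean -2.06 ± 0.69, adjusted p = 0.0113; 34723796 to 34723855). It was well above background in 1 of 4 organoid channels. Ifit3 had -1.98 and -0.77 in mouse 1 and -1.55 and -1.69 in mouse 2 (mean -1.49 ± 0.17, adjusted p = 0.00568; 34663105 to 34663164). Ifit2 was at -0.09 ± 0.10 (adjusted p = 0.717), with ratios of -0.29, -0.04, -0.20 and 0.16 (34650244 to 34650303). It was dim, with a crypt channel level of 7.57 and 7.75 on the log2 intensity scale in mice 1 and 2, and of 7.41 and 7.73 in organoids. Whether Ifit2 differed from Ifit1 and Ifit3 was not tested.

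Of the other antiviral effectors, 3 of 5 fell. Mx2, a GTPase that blocks viral replication, was at -1.44 ± 0.69 (adjusted p = 0.0271), with -0.95 in mouse 1 and -1.93 in mouse 2. It was well above background in 2 of 4 organoid channels. Bst2 (tetherin), which holds budding viruses at the cell surface, was at -0.85 ± 0.12 (adjusted p = 0.0214). Rsad2 (viperin), which makes a chain-terminating nucleotide, fell by its brighter probe (-1.08 ± 0.53, adjusted p = 0.0358), which was well above background in no organoid channel. The bound for that probe was at least 1.95-fold lower in organoids as the mean of the 2 mice. The second tested Rsad2 probe, above background in 2 organoid channels, was at -0.20 ± 0.19, and the mean over probes did not pass (-0.64, adjusted p = 0.0789). Mx1 was well above background in no organoid channel, with a bound of at least 1.32-fold as the mean of the 2 mice. Its ratios were -0.69, -0.05, -0.85 and -0.46 (adjusted p = 0.0883, and 0.00683 from the scanner's own ratios, which rest on the same dim organoid signal). Samhd1, which lowers the cell's pool of DNA building blocks, had -0.63 and -0.44 in mouse 1 and -0.26 and 0.04 in mouse 2 (mean -0.32 ± 0.30, adjusted p = 0.268). This probe was above background in all 8 channels, and the second Samhd1 probe was at -0.63 ± 0.63.

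Interferon-inducible GTPases defend cells against intracellular bacteria and parasites. Igtp (Irgm3) had -3.66 and -2.86 in mouse 1 and -3.25 and -3.46 in mouse 2, a 9.90-fold lower level with a mean of -3.31 ± 0.06 (adjusted p = 0.00124; chromosome 11, 58020927 to 58020986). The 2 mice differed little and all 4 arrays lay far below 0. Ifi47, of the same family, had -1.42 (SD 0.01, adjusted p = 0.00538). Gbp3 had -1.47 and -0.22 in mouse 1 and -2.38 and -2.07 in mouse 2 and was in no organoid channel well above background. As the mean of the 2 mice it was at least 2.48-fold lower in organoids (adjusted p = 0.0479; chromosome 3, 142236072 to 142236131). Gbp2 had -0.32, -0.08, -0.91 and -0.66, and its mean of -0.49 ± 0.41 did not pass (adjusted p = 0.16). From the scanner's own ratios Gbp2 passed as lower (-1.50, adjusted p = 0.0236), as it did from the authors' matrix (-1.52, adjusted p = 0.0246). Iigp1 was well above background in 3 of 4 crypt channels and in no organoid channel, which left it untested, with a bound of at least 1.42-fold lower in organoids.

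The chemokine genes were near the limit of detection. Cxcl10, which draws T cells to sites of interferon signalling, had ratios of -0.49, -0.11, 0.17 and -0.40 and a mean of -0.21 ± 0.13 (adjusted p = 0.388). Its channel level was 7.73 and 7.72 in crypts and 7.43 and 7.60 in organoids. Cxcl9, a chemokine for the same receptor that is known as a type II interferon target, was above background in 3 of 4 crypt channels and in no organoid channel (untested, at least 1.20-fold lower).

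The remaining 8 genes include the largest difference of all 41. Rtp4, a chaperone for receptor transport that interferon induces, had -4.44 and -2.41 in mouse 1 and -3.75 and -3.66 in mouse 2. The mean was -3.57 ± 0.20 (adjusted p = 0.00124, 11.9-fold lower; chromosome 16, 23613668 to 23613727), and its channel level went from 11.3 and 11.7 in the crypts of mice 1 and 2 to 7.92 and 8.01 in the organoids. Parp14, an ADP-ribosyltransferase, had -2.71 and -2.40 in mouse 1 and -2.35 and -2.91 in mouse 2 (mean -2.59 ± 0.05, adjusted p = 0.00165; chromosome 16, 35832992 to 35833051). Its neighbour and partner gene Parp9 fell (-1.27 ± 0.40, adjusted p = 0.0161). Ifi35 (-1.37 ± 0.17), the apoptosis-related gene Xaf1 (-1.36 ± 0.34) and the ubiquitin-like modifier gene Ubd (-1.34 ± 0.32) also fell. Ubd was well above background in 1 of 4 organoid channels, so its ratio rests on a dim organoid signal. Ifi44 had -0.53 and -0.10 in mouse 1 and -1.74 and -1.25 in mouse 2 and did not pass (adjusted p = 0.12, and 0.0148 from the scanner's own ratios). It was well above background in no organoid channel, so the scanner's ratios rest on a dim signal too. The bound for Ifi44 was at least 1.68-fold as the mean of the 2 mice. The brightest of 3 tested probes named Ifi27 on the array fell (-1.02 ± 0.01, adjusted p = 0.0124), and the others were at -0.47 and -0.49, which gave -0.66 as the mean over probes. By accession RefSeq assigns 2 of the 3, the brightest included, to Ifi27l2a, a gene of the same family. The probe that RefSeq assigns to Ifi27 carries another name on the array and was at -1.36 ± 0.25.

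**Figure D2:**
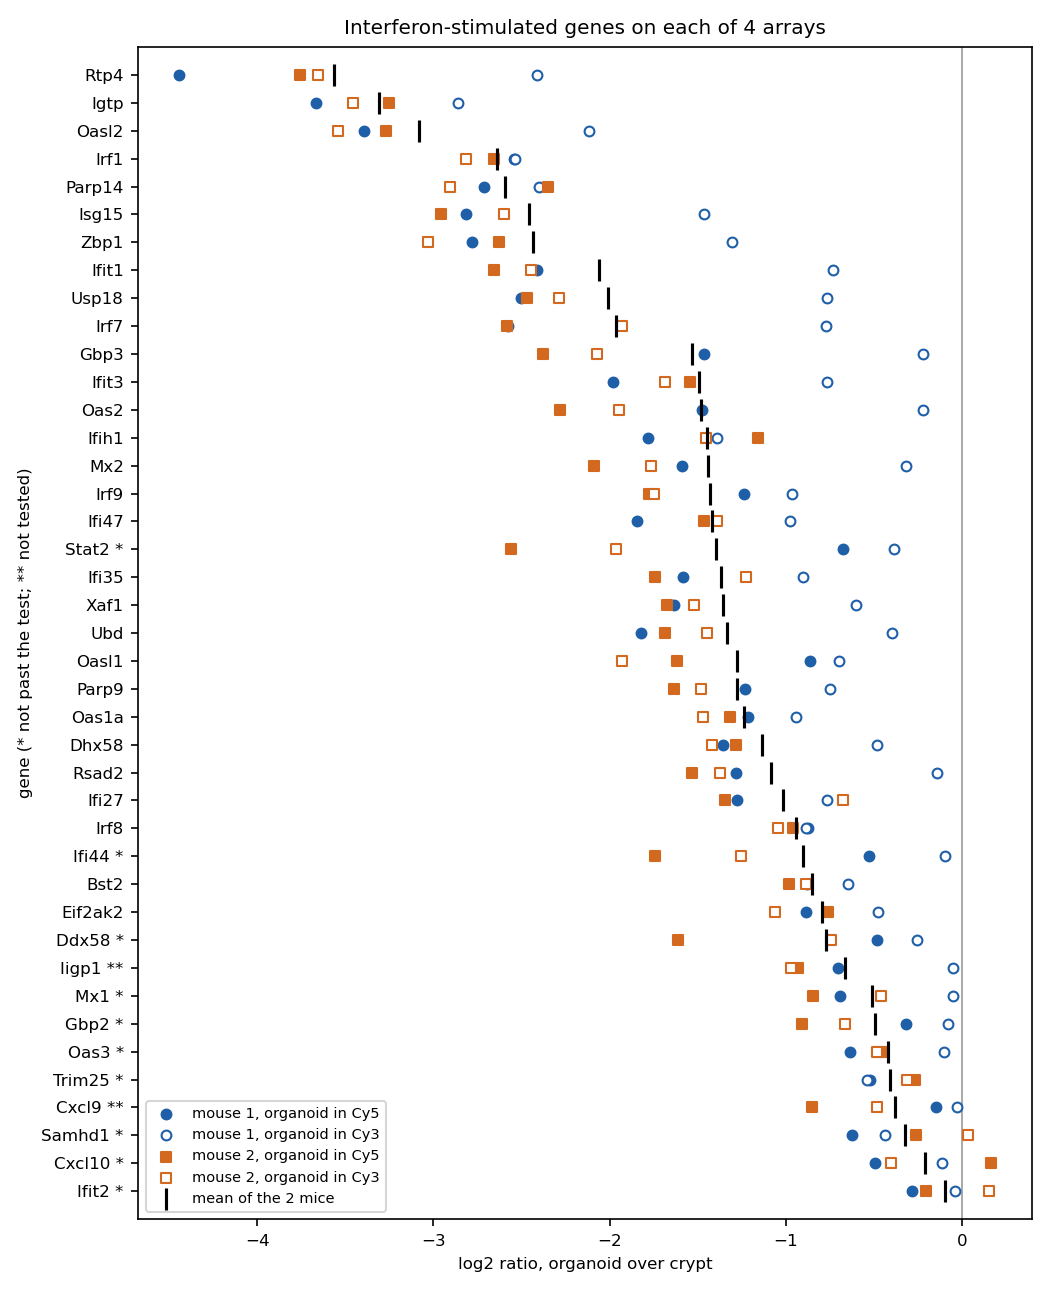
Log2 ratio of organoid over crypt of all 41 genes on each of the 4 arrays (symbols by mouse and dye orientation) and the mean of the 2 mice (black tick), ordered by the mean. The open blue circles, mouse 1 with the organoid in Cy3, lie nearest 0 for 33 of the 39 genes tested, and Samhd1, Cxcl10 and Ifit2 have 1 array above 0 each.

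Channel levels show where the organoid signal lay. By its brighter probe Irf1 went from 15.0 in the crypts of both mice to 12.4 and 12.2 in organoids on the log2 intensity scale, so it stayed far above background. Isg15 went from 10.3 and 10.6 to 8.12 and 7.81 and stayed above background in all 4 organoid channels. Another 6 of the 41 genes had no probe above background in any organoid channel, namely Gbp3, Oas2, Ifi44, Mx1, Iigp1 and Cxcl9. Of these, only Gbp3 and Oas2 were called lower, whereas Ifi44 and Mx1 did not pass and Iigp1 and Cxcl9 were not tested. Among all probes, 51.5% to 61.7% were above background per organoid channel, and the matching share over all genes was not computed. For 10 genes more than 1 probe was tested, and all probes of each of them had the same sign. Probes of a gene differed in size, as with Irf9 at -1.43 and -0.46, Parp14 at -2.59 and -1.63 and Irf1 at -2.64 and -1.75.

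**Figure D3:**
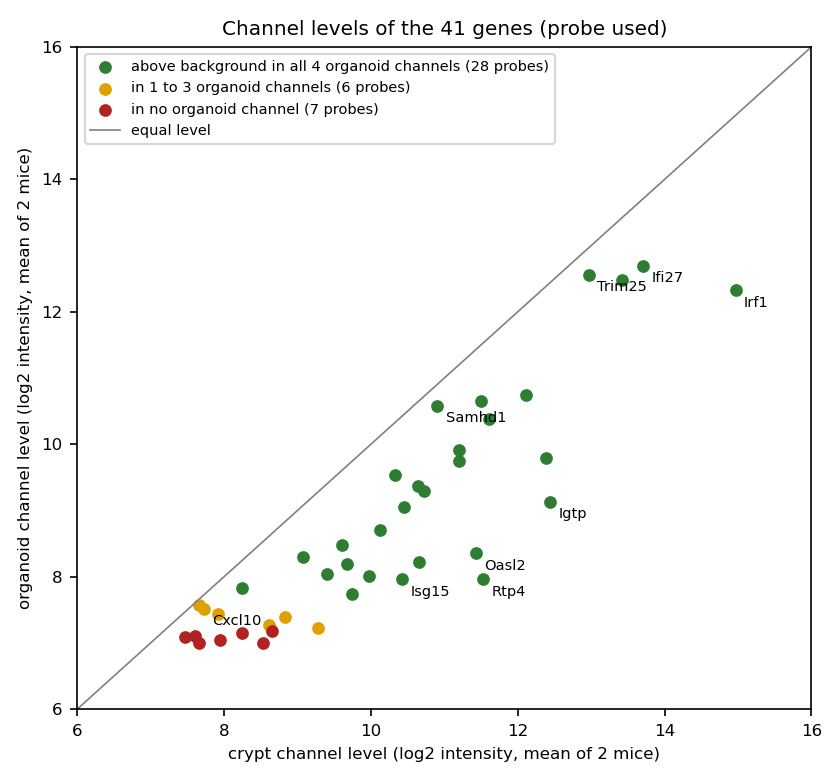
Channel level in organoids against that in crypts (log2 intensity, means of 2 mice) for the 41 genes, coloured by the number of organoid channels in which the probe plotted was well above background, with the line of equal level. All points lie below the line. The 7 probes above background in no organoid channel (red, with the brighter Rsad2 probe among them) sit near 7 on the organoid axis.

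The ratios of most of these genes were lower in mouse 2 than in mouse 1. The ratio was lower in mouse 2 for 33 of the 39 genes (and for 49.9% of all genes), with a median difference of -0.43. This rested mostly on the arrays with the organoid in Cy3, where the ratio was lower for 35 of 39 with a median of -0.73, against 22 of 39 with a median of -0.07 where it was in Cy5. Read by channel, the crypt level was higher in mouse 2 for 34 of the 39 (52.3% of all genes) with a median of 0.37, and the organoid level for 21 of 39 (50.8% of all genes) with a median of 0.03. The genes with the largest crypt differences were Gbp3 (1.35), Oas2 (1.26), Zbp1 (1.05) and Ifi44 (1.05). Stat2 differed in both tissues, by 0.68 in crypts and -1.05 in organoids, and Oasl1 by 0.10 in crypts and -0.90 in organoids. In both dye orientations the crypt level was higher in mouse 2 for 30 of 39 genes, against 35.5% of all genes, and the organoid level for 11 of 39, against 39.5%. The size depended on the orientation, with a crypt median of 0.15 where the organoid was in Cy5 and of 0.59 where it was in Cy3. With each channel merely centred on its median, which was chosen after seeing the data, the crypt level was higher in mouse 2 in both orientations for 17 of 39, against 26.7% of all genes, with a median of 0.15. With 1 crypt sample per mouse the difference between the mice has no replicate check and was not tested.

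**Figure D4:**
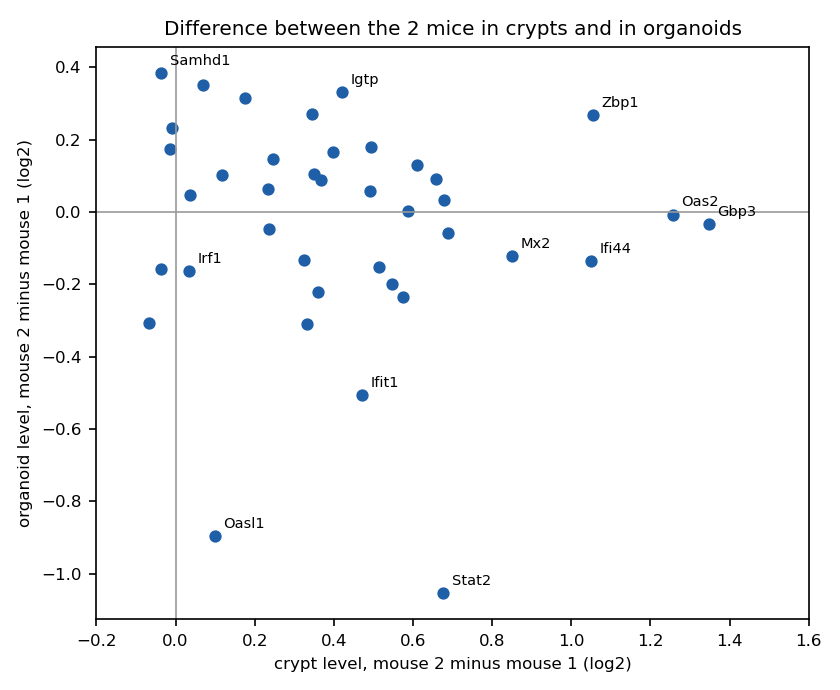
Difference in channel level between mouse 2 and mouse 1 (log2) in crypts (horizontal) and organoids (vertical) for the 39 genes tested. Most points lie right of 0, with a crypt median of 0.37, and are spread about 0 in organoids, with a median of 0.03.

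The mouse 1 array with the organoid in Cy3 gave smaller ratios than the other 3. The medians of the 39 genes were -1.36 and -0.70 on the arrays of mouse 1 and -1.63 and -1.47 on those of mouse 2. The SD over all genes was 0.44 on that array and 0.59 to 0.67 on the others. Left out, which was chosen after seeing the data, 33 of 39 genes fell (7.19% of all genes) with a median of -1.50. With the 2 arrays that carried the organoid in Cy3 alone, 14 of 39 fell (3.06% of all genes). Across genes, the arrays of a mouse correlated at r = 0.837 and 0.850, and arrays of the same orientation from different mice at 0.725 and 0.756, which describes genes and not independent replicates.

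Of the genes that act before the induced ones, few were called. Since 5.49% of all genes tested fell, few calls would be found in lists of this size anyway, so the counts are only a description. None of 5 interferon genes tested passed, and all 5 were type I genes whose copies are close in sequence, so their probes may not tell them apart. They were Ifna9 (-0.03 ± 0.40), Ifna12 (0.03 ± 0.19), Ifna5 (0.04 ± 0.22), Ifna2 (0.08 ± 0.19) and Ifnab (0.08 ± 0.24). Ifng and Ifnb1, the type II interferon and a main type I interferon, were above background in none of the 8 channels, and the type III gene Ifnl3 in 1 crypt and 2 organoid channels. None of the 6 receptor genes passed either. Ifngr1, the ligand-binding chain for type II interferon, was at 0.67 ± 0.28 (adjusted p = 0.057), Ifngr2 at -0.36 ± 0.27, Ifnar1 at 0.00 ± 0.03, Ifnar2 at 0.02 ± 0.43, Il10rb at -0.34 ± 0.28 and the type III receptor gene Ifnlr1 at -0.47 ± 0.14 (adjusted p = 0.0974).

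Of 4 further JAK-STAT genes tested, Stat3, which serves other cytokines as well, fell (-0.95 ± 0.28, adjusted p = 0.0232). The kinase genes Jak2 (-0.53 ± 0.21, adjusted p = 0.0824), Tyk2 (-0.25 ± 0.34) and Jak1 (-0.18 ± 0.12) did not pass. Among 10 inhibitors of the signal 1 fell, the STAT5 target Cish (-1.33 ± 0.21, adjusted p = 0.0084), and Socs1, the inhibitor best known for interferon, was at -0.49 ± 0.14 (adjusted p = 0.0862). None of 11 genes that sense nucleic acid or activate IRF3 passed, with a median of -0.34.

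A further list of interferon-stimulated genes, drawn up beside the 41, held 35 tested genes, of which 21 fell, none rose and 14 did not pass (median -0.89). The lowest were the tryptophan-degrading enzyme gene Ido1 (-3.39 ± 0.01, adjusted p = 0.00124), Apol9a (-2.39 ± 0.76, adjusted p = 0.00913) and the GTPase gene Irgm2 (-2.38 ± 0.00, adjusted p = 0.00184). Nearest 0 among those that passed were Lgals3bp (-0.67 ± 0.12), Trim21 (-0.77 ± 0.31) and Gbp7, whose probe was above background in no organoid channel and at least 1.43-fold lower there. Over these 6 lists 23 of 71 genes fell, none rose and 48 did not pass, by the same limma test, against 5.49% of all genes lower. The further list alone held 21 of the 23. The difference between the lists was not tested.

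**Figure D5:**
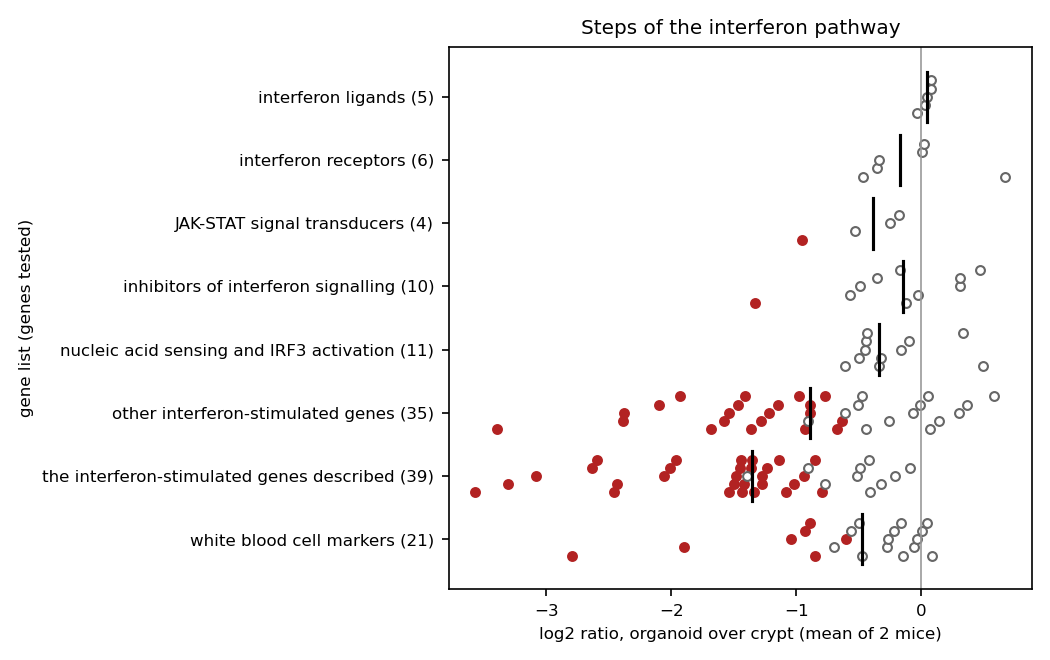
Log2 ratio of organoid over crypt (mean of 2 mice) of each tested gene in 6 lists of the interferon pathway, in the 39 interferon-stimulated genes described and in white blood cell markers. Filled points fell in the test, open points did not pass, and black bars are list medians, from 0.04 for ligands to -1.36 for the 39 genes.

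Some markers of other cells were lower in organoids as well. Of 21 white blood cell markers tested, 7 fell, none rose and 14 did not pass (median -0.48), where 5.49% of all genes fell. Those that fell include the lymphocyte granule protease genes Gzma (-2.80 ± 0.15) and Gzmb (-1.90 ± 0.20) and the T cell receptor subunit gene Cd3g, which was above background in no organoid channel and at least 2.00-fold lower there. The summed channel level of the tested list was 6389 to 8740 in crypts and 4269 to 5148 in organoids over the 4 arrays. By the probe used, 10 of the 27 on the array were above background in no organoid channel, and 2 in no crypt channel. Of all probes, 51.5% to 61.7% were above background per organoid channel, and the matching share over all genes was not computed. The pan-leukocyte gene Ptprc was at -0.70 ± 0.33 (adjusted p = 0.0607), and Cd3e at 0.08 ± 0.19. Between the mice, the crypt level of these markers differed by a median of -0.03 and was higher in mouse 2 for 9 of 21. That of the further interferon-stimulated genes differed by 0.29 and was higher for 25 of 35, where 52.3% of all genes were higher. These levels rest on 1 crypt sample per mouse, and for the 39 genes such differences were smaller with channels merely centred. Whether these 2 lists differed between the mice was not tested. Of the differentiated cell genes, 10 of 12 enterocyte markers (median -1.80) and all 7 Paneth cell markers (median -2.11) fell. Of 10 general epithelial markers 3 fell, 1 (Krt18) rose and 6 did not pass (median -0.45), and of 3 stromal markers tested 1 fell. The part of these cells in the interferon result was not tested.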

How the data were processed

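The scanner files of the 4 arrays were processed in R 4.3.3 with limma 3.58.1. Each deposited file holds spot and local background intensity values in Cy3 and Cy5 on a linear scale and the scanner's log10 ratio, from Agilent Feature Extraction 10.2.1.3 per the file headers (9.5.3 per the submitters' processing notes). The authors' deposited matrix behaved as log2 ratios of Cy5 over Cy3 (r with the scanner ratios 0.978 to 0.991, medians 0), and how it was centred is not stated there. Background was corrected with normexp (offset 50), loess was run within each array (weight 0 for controls), outlier spots were dropped, and the dye labels set the direction of each ratio as organoid over crypt. The share of probes well above background was 51.5% to 67.2% per channel. Where the text says above background, it means well above background by the scanner's flag. Testing required 4 unmarked arrays and a signal well above background in every crypt or every organoid channel, and a gene was read from its brightest tested probe, named by RefSeq accession where matched (24844 of 41174 probes). The 2 mouse means of a gene entered lmFit and eBayes, two-sided against 0, with Benjamini-Hochberg adjustment over 15538 genes. The arrays of a mouse pair by the labels. With 2 mice there is 1 residual degree of freedom, to which eBayes added 4.16. Channel levels are log2 intensity after loess and Aquantile, and they can carry dye bias. "At least N-fold" sets the crypt mean against an organoid level no lower than the lowest signal well above background on each array. It is a bound on the mean of the 2 mice, so 1 mouse can lie nearer 0. All 4 arrays lay on 1 slide. The number of arrays limits the precision. Probe positions are mm9, and promoters are RefSeq's for GRCm38.p6. The genes and lists were chosen with earlier results of these data known. Full values are given for the 12 lowest genes that passed and for all tested genes that did not. The fit was tested on simulated data.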

Additional observations from a re-analysis of the deposited data

How the results depend on the processing

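All 29 falls kept their sign under the 13 other settings in which each could be tested, and Rtp4, Igtp, Oasl2, Irf1, Parp14 and Isg15 passed in every one. Oasl1 did not pass in 5 of 13 settings, the scanner's own ratios and the authors' matrix among them, and Rsad2 in 4 of 12. Dhx58, Eif2ak2, Gbp3, Ifit1, Mx2, Oas2, Parp9, Ubd, Usp18 and Xaf1 each did not pass in 3. Those 3 were median centring, no dim-probe filter and the organoid in Cy3 alone. The number that fell was 7 with median centring, 15 of 41 with no dim-probe filter (1.34% of all genes) and 14 with the organoid in Cy3 alone. Under the other settings it was 23 to 33, with 4.9% to 11.3% of all genes lower, and no setting called any of the genes higher. The median was -1.90 from the scanner's ratios and -1.92 from the authors' matrix. The count at least 2-fold lower in both mice was 8 with the organoid in Cy3 alone. Counted in 1 mouse only, it was 19 in mouse 1 (mouse 2 left out) and 30 in mouse 2 (mouse 1 left out). The other pathway genes that fell numbered 4 with median centring, 9 with no dim-probe filter, 14 with all 8 channels above background, 10 with the organoid in Cy3 alone and 36 with 4 arrays and no replicate block. White blood cell markers that fell numbered 2 with median centring, 1 with all 8 channels and 1 with the organoid in Cy3 alone. The crypt count higher in mouse 2 was 17 with channels centred. Ifit2 turned to 0.057 with the organoid in Cy3 alone (limma adjusted p = 0.845). With the mouse as a replicate block (correlation 0.173, no dye term, which could not be fitted with it) 31 of the genes fell, all 29 with Stat2 and Trim25, against 9.59% of all genes. The block fit and the fit of 4 arrays without it count dye-swapped arrays of the same RNAs as nearly or fully separate replicates. Median centring moved the median of all genes to 0.17. A slide block was not run, since all arrays lay on 1 slide. The causes were not tested. Dim organoid signal limits the 6 genes with no probe above background in any organoid channel.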
